A study of Mus musculus with 9 samples.

Results

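The genes described here are the Eph receptors, their ephrin ligands, the Slit ligands with their Robo receptors, and the netrins with their DCC and Unc5 receptors, in mouse ovaries with and without a working estrogen receptor β (ERβ). Within these families the members were taken by gene symbol from the deposited count table, by a rule that uses no measured value, and 36 of the 46078 genes in the table belong to them: 9 EphA and 5 EphB receptors, 5 ephrin-A and 3 ephrin-B ligands, 3 Slits, 4 Robos, 2 netrins and 5 netrin receptors. Whole ovaries were sequenced as 1 RNA-seq library per mouse, from 5 WT mice and 4 ERβKO mice. Both groups were C57BL/6J and are labelled as untreated, although a protocol note shared by all samples describes a diet and an ERβ ligand given by injection, so the diet of these mice is not settled here. ERβKO mice carry a germline deletion of exon 3 of Esr2, the gene for ERβ, made with a Rosa26-driven Cre, and lack ERβ in every tissue rather than in 1 ovarian cell type. WT mice had no Cre. No estrous stage was recorded for the ovaries, and the study gives a shared age range, from young to adult mice, rather than an age for each of these mice. Gene positions are those of the count table, on GRCm38.

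Eph receptors are the largest family of receptor tyrosine kinases, and they bind ephrins that are themselves held in the membrane of a neighbouring cell. EphA receptors mostly bind ephrin-A ligands, which have a lipid anchor, and EphB receptors mostly bind ephrin-B ligands, which cross the membrane and can signal back into the cell that carries them. Slits and netrins are secreted: Slits bind Robo receptors and usually repel cells and processes, while netrins bind DCC or Unc5 receptors. These systems are best known from axon guidance and are also used in blood vessels and epithelia, and in the ovary some of their members have been placed in granulosa cells, the corpus luteum and the surface epithelium.

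The WT libraries held 12353740 to 16519975 counted fragments and the ERβKO libraries 13088728 to 18717510. Esr2, counted over its whole length so that the exons left in the knockout allele are included, stood at 17.8, 12.4, 14.9, 23.9 and 14.5 FPKM across WT replicates 1 to 5, against 14.3, 16.2, 10.5 and 23.7 FPKM across ERβKO replicates 1 to 4, and thus cannot check the genotype labels. FPKM are fragments scaled to the length of the gene and to the mapped fragments of the library. WT replicate 2 stood apart from the other WT ovaries: on the first principal component of log2 CPM (counts scaled to the size of the library), which held 35.9% of the variance, it lay at 9.43, the other WT ovaries between -43.8 and -15.6, and the ERβKO ovaries between 19.4 and 35.3. Results that rest on this library are given with and without it. The library numbers of the labels are above 200 for WT replicates 4 and 5 and below 200 for the other 7 libraries; what the numbers stand for is not stated. With the libraries numbered below 200 alone, edgeR called 51 genes and 0 members. Of 10 luteal cell markers 9 had a log2 fold change below 0 in ERβKO ovaries, and their summed level was 2840 to 6570 FPKM in WT and 2570 to 3800 FPKM in ERβKO ovaries. Of 10 granulosa cell markers 8 lay above 0, with sums of 563 to 688 FPKM in WT and 672 to 939 FPKM in ERβKO ovaries. No marker of either list was at 0 in any library, and edgeR called 0 of the luteal and 1 of the granulosa markers as DEGs. The 6 theca cell markers summed to 627 to 913 FPKM in WT and 972 to 1820 FPKM in ERβKO ovaries, with no overlap. In their mean log2 CPM the genotypes did overlap, at 4.96 to 5.80 in WT and 5.52 to 6.30 in ERβKO ovaries. The granulosa markers went the other way, with sums that overlapped and means that did not (5.92 to 6.24 in WT and 6.31 to 6.73 in ERβKO ovaries). Of the 5 theca markers tested 3 lay above 0, 2 below and 1 was called, and Insl3 was at 0 in at least 1 library. Ovgp1, the oviduct glycoprotein, was at 1294 FPKM or more in every library. The 5 oviduct epithelium markers, most of whose sum was Ovgp1, summed to 1360 to 2470 FPKM in WT and 1580 to 2010 FPKM in ERβKO ovaries. Of these 3 lay above 0 and 2 below, and none was at 0 in any library. How much oviduct tissue came with the ovaries was not tested. In tissue of mixed cells, fewer cells of a type and less RNA per cell cannot be told apart, which holds for each difference below. The part of luteal, granulosa and theca cell content in the members' differences was not tested.

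Ligands and receptors of all 3 systems were present in the ovary. Efnb1, the gene for ephrin-B1, was the most abundant member at 15.8 ± 1.23 FPKM in WT ovaries (SD, n = 5), higher than 73.5% of the tested genes over all ovaries. It was followed in WT ovaries by Ntn4 (11.7 ± 2.09 FPKM), Ephb4 (10.0 ± 0.205 FPKM), Efna1 (8.83 ± 1.07 FPKM), Efnb2 (8.80 ± 1.45 FPKM) and Robo1 (7.57 ± 0.964 FPKM). The WT range of each of these genes overlapped that of the next in the order, so neighbours were not separated by more than their spread. At the other end, 5 members did not pass edgeR's filter on low counts: Epha6 (at most 7 fragments per library), Epha8 (at most 30), Epha10 (at most 17), Unc5d and Dcc (each at most 11). The DCC receptor itself was therefore near or below detection, and the netrin receptor with the highest level was Unc5b, at 1.60 ± 0.165 FPKM in WT ovaries.

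**Figure D1:**
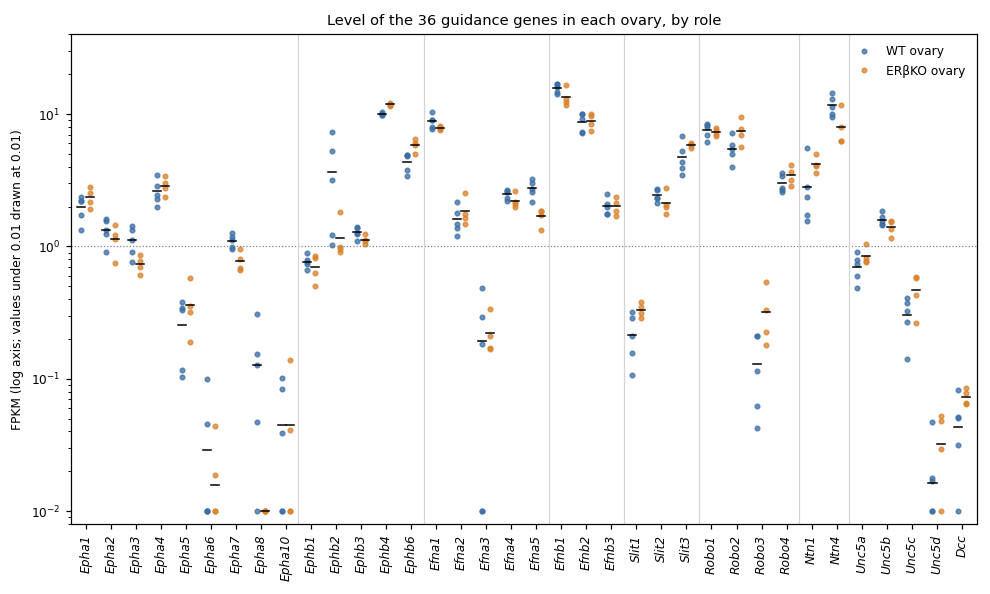
Level of all 36 members in each of the 9 ovaries, in FPKM on a log axis, grouped by role from EphA receptors on the left to netrin receptors on the right; points are ovaries (blue WT, orange ERβKO), black lines are group means, and the dotted line is 1 FPKM. Efnb1, Ntn4 and Ephb4 lie at the top in WT ovaries, and Epha6, Epha8, Epha10, Unc5d and Dcc at the bottom.

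Genotypes were compared on the counts with the quasi-likelihood test of edgeR, whose p-values were adjusted over all genes by the Benjamini-Hochberg method. By this test 0 of the 31 tested members were DEGs, against 1.72% of all 16722 genes. A DEG needed a log2 fold change beyond 0.4 in either direction, an adjusted p below 0.05 and a mean above 1 FPKM in WT or in ERβKO ovaries, and 24 members passed the last criterion. At an unadjusted p under 0.05 there were 10 members of 31 (32.3%), against 19.8% of all genes. Of these, 4 were higher in ERβKO ovaries (Ephb4, Ephb6, Robo2 and Robo3, against 9.81% of all genes) and 6 were lower (Epha3, Epha7, Ephb2, Efna5, Efnb1 and Ntn4, against 10.0% of all genes). All 10 kept their direction when any 1 of the 9 libraries was left out. So did every other tested member except Efna2, Efnb2, Efnb3 and Unc5c, so this does not set the 10 apart. DESeq2, run as an alternative, called 5 members, all lower in ERβKO ovaries (Epha3, Epha7, Ephb2, Efna5 and Ntn4), where 4.66% of all genes with an adjusted p were called and 2.47% were called as lower. Without WT replicate 2, edgeR called 5 members, where it called 5.51% of all genes: Epha3, Epha7, Ephb2 and Efna5 as lower (2.56% of all genes) and Ntn1 as higher (2.95%). Efna5 was also called without WT replicate 3, Ntn4 without ERβKO replicate 1 and Efnb1 without ERβKO replicate 3, fits in which 2.14%, 1.5% and 0.897% of all genes were called. The median log2 fold change of the 31 members was -0.024, beside -0.00089 over all genes tested, with 15 members above 0 and 16 below. Limma on the deposited FPKM called 0 members with either pseudocount. The lowest and highest adjusted p among the alternatives were 0.0473 and 0.395 for Epha3, 0.0152 and 0.32 for Epha7, 0.00441 and 0.167 for Ephb4, 0.0379 and 0.233 for Ephb6 and 0.00328 and 0.24 for Efna5. They were 0.0498 and 0.425 for Efnb1, 0.0686 and 0.585 for Robo2, 0.0238 and 0.168 for Robo3, 0.0357 and 0.35 for Ntn4, and 0.0217 and 0.642 for Ntn1.

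**Figure D2:**
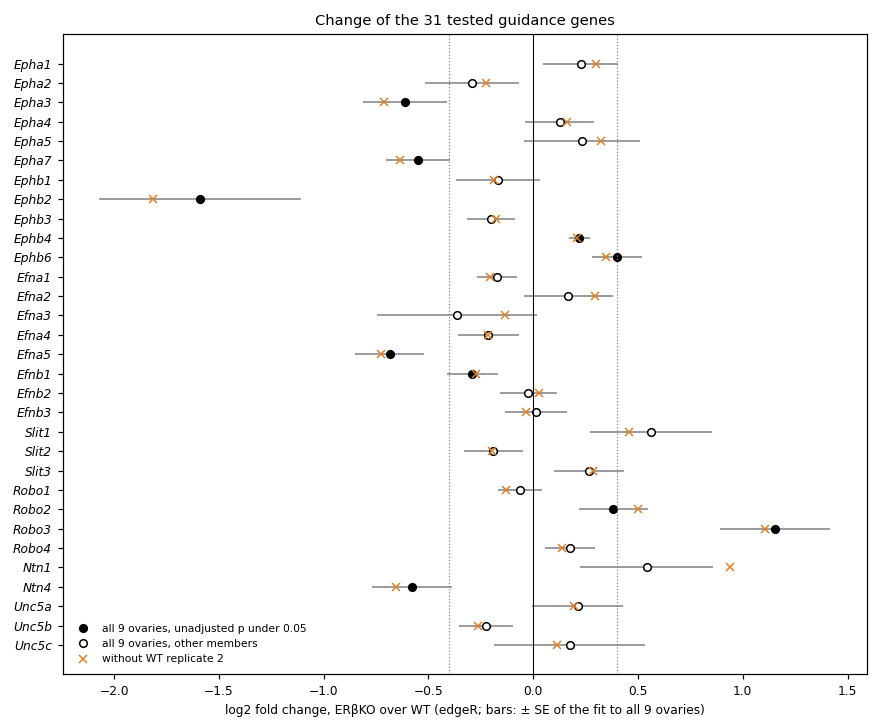
Log2 fold change of ERβKO over WT for the 31 tested members, from edgeR; circles are the fit to all 9 ovaries with bars of ± SE (filled where the unadjusted p was under 0.05), crosses the fit without WT replicate 2, and dotted lines the fold criterion of 0.4 in either direction. Ephb2 lies farthest to the left at -1.59 and Robo3 farthest to the right at 1.15, and Ntn1 moves the most without WT replicate 2, from 0.54 to 0.94.

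Among the EphB receptors, Ephb2 (ENSMUSG00000028664, chr4:136647539-136835988, minus strand) had the largest difference of all tested members. Ephb2 encodes a kinase receptor for ephrin-B ligands that sorts cells in epithelia. Its level was 3.20, 1.03, 1.23, 5.29 and 7.37 FPKM across WT replicates 1 to 5, against 1.81, 0.994, 0.908 and 0.959 FPKM across ERβKO replicates 1 to 4. The WT ovaries were split: replicates 1, 4 and 5 were above all ERβKO ovaries, while replicates 2 and 3 lay within the ERβKO range of FPKM. In CPM, WT replicate 2 (13.9) lay within the ERβKO range of 13.0 to 14.7 and WT replicate 3 (16.2) above it. Its log2 fold change was -1.59 (SE 0.48), and the adjusted p was 0.111 by edgeR and 0.043 by DESeq2. Without WT replicate 2 it was -1.82 (SE 0.39), and the adjusted p was 0.028 by edgeR. Other fits gave smaller values: -1.16 without WT replicate 5 (adjusted p = 0.207 by edgeR), -0.95 with the replicate number as a block (0.257) and -0.78 with the libraries numbered below 200 (0.374), which leave out WT replicates 4 and 5. The lowest adjusted p among the 18 alternatives was 0.028 and the highest 0.374.

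The same 3 WT ovaries were the highest in Scarb1, the receptor through which luteal cells take up cholesterol. Scarb1 stood at 310.8, 105.8, 105.1, 213.2 and 405.6 FPKM across WT replicates 1 to 5, against 90.7, 136.6, 174.1 and 127.2 FPKM across ERβKO replicates 1 to 4. Of the 10 luteal markers, 4 had these same 3 ovaries as their highest: Scarb1, Star, Cyp11a1 and Prlr. Star, which brings cholesterol into mitochondria, was at 217.0, 73.8, 184.5, 186.7 and 323.9 FPKM across WT replicates 1 to 5, against 66.5, 35.0, 85.4 and 26.7 FPKM across ERβKO replicates 1 to 4, so WT replicate 3 was close to WT replicate 4. The other 6 markers differed from Ephb2 in this set. Lhcgr, the receptor for luteinizing hormone, was at 114.7, 79.1, 37.9, 155.8 and 248.3 FPKM across WT replicates 1 to 5, against 21.7, 99.97, 197.0 and 111.3 FPKM across ERβKO replicates 1 to 4. ERβKO replicate 3 was therefore second only to WT replicate 5 in Lhcgr, with 0.908 FPKM of Ephb2, the lowest of the 9 ovaries. The part of luteal cells in the difference of Ephb2 was not tested.

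Epha8 (ENSMUSG00000028661, chr4:136929419-136956816, minus strand), a receptor for ephrin-A ligands, lies 93.4 kb from Ephb2, with C1qa, C1qb and C1qc as the protein-coding genes between them. Epha8 was counted 14, 6, 3, 16 and 30 times in WT replicates 1 to 5 and 2, 1, 1 and 1 times in ERβKO replicates 1 to 4. The 3 ovaries with the most Epha8 fragments were the 3 with the most Ephb2, and no ERβKO ovary reached the lowest WT count. Epha8 did not pass edgeR's filter. DESeq2 tested it and gave an adjusted p of 0.00326, but it failed the criterion on FPKM, with a mean of 0.128 ± 0.119 FPKM in WT ovaries (SD, n = 5) and 0 listed in all 4 ERβKO ovaries. The genes between had another order, with C1qa, C1qb and C1qc all lowest in WT replicates 4 and 5. C1qa, which encodes a chain of complement C1q made by macrophages, was at 50.8, 45.9, 44.6, 28.6 and 25.8 FPKM across WT replicates 1 to 5, against 47.7, 50.2, 42.1 and 38.8 FPKM across ERβKO replicates 1 to 4.

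**Figure D3:**
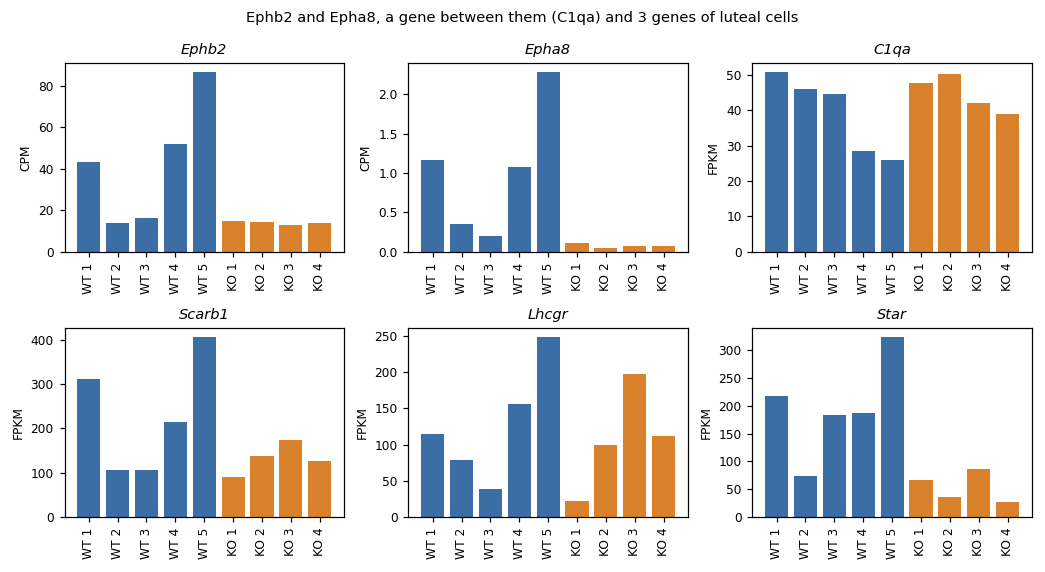
Bars of Ephb2 and Epha8 in CPM (library sizes scaled by TMM), and of C1qa, Scarb1, Lhcgr and Star in FPKM, for WT replicates 1 to 5 (blue) and ERβKO replicates 1 to 4 (orange); each axis starts at 0. Ephb2 and Epha8 are highest in WT replicates 1, 4 and 5, C1qa is lowest in WT replicates 4 and 5, and Lhcgr is also high in ERβKO replicate 3 (197 FPKM).

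The promoters of Ephb2 and Epha8 are shown since these neighbouring receptors were high in the same ovaries. The sequences are from RefSeq on GRCm38.p6, from 250 bases before to 50 after the start site, 5′ to 3′ on the strand of the gene. The window of Ephb2 is chr4:136835963-136836262, minus strand, and that of Epha8 is chr4:136956767-136957066, minus strand.
Ephb2: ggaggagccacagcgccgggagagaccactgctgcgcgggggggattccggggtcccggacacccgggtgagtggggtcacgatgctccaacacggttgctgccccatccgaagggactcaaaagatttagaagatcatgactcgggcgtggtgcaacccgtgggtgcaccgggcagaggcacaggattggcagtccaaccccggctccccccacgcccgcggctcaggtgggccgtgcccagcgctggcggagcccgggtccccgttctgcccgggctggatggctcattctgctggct
Epha8: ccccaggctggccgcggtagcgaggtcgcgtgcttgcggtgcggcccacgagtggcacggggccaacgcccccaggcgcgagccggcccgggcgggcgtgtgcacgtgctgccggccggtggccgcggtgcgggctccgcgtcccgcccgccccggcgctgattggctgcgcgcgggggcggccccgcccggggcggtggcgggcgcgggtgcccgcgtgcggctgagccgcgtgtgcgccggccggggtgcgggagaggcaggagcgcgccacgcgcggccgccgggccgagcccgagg
Both windows were rich in CG dinucleotides, with 24 in Ephb2 and 56 in Epha8, beside a median of 7 over the 32851 promoters of the table. Neither held the palindromic estrogen response element GGTCANNNTGACC, the half-site AGGTCA, the NR5A element CAAGGTCA or the AP-1 element TGANTCA on either strand. The shorter GGTCA, without the leading A, was not searched, and it occurs in the window of Ephb2.

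Ephb4 (ENSMUSG00000029710, chr5:137350109-137378669, plus strand), the venous receptor of ephrin-B2, had the smallest spread of the members named here. It stood at 10.3, 10.1, 9.81, 10.1 and 9.78 FPKM across WT replicates 1 to 5, against 12.2, 11.9, 11.6 and 11.8 FPKM across ERβKO replicates 1 to 4. All 4 ERβKO ovaries exceeded all 5 WT ovaries, with a coefficient of variation of 2.05% within WT and 1.93% within ERβKO ovaries. Over all genes tested, 7.61% had no overlap between the genotypes (4.29% higher and 3.31% lower), and 4 members had none (12.9% of 31), Ephb4 and Ephb6 as higher and Epha7 and Efna5 as lower. The log2 fold change of Ephb4 was 0.22 (SE 0.049). Its adjusted p was 0.0508 by edgeR, 0.00441 by DESeq2 and 0.0445 by edgeR without WT replicate 2. The change was below the fold criterion in each of these fits. Of 9 endothelial markers 8 had a log2 fold change below 0, with summed levels of 103 to 129 FPKM in WT and 98.4 to 120 FPKM in ERβKO ovaries and none at 0 in any library. The part of endothelial cells in the level of Ephb4 was not tested.

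Ephb6 (ENSMUSG00000029869, chr6:41605482-41620509, plus strand), an EphB receptor whose kinase domain is inactive, was at 4.88, 3.77, 4.81, 4.88 and 3.39 FPKM across WT replicates 1 to 5, against 6.47, 5.86, 5.00 and 6.05 FPKM across ERβKO replicates 1 to 4. The genotypes did not overlap in FPKM, but in CPM ERβKO replicate 3 (29.1) lay below the highest WT ovary (29.4). ERβKO over WT, the log2 fold change was 0.3998 (SE 0.12) by edgeR and 0.3957 by DESeq2, both just under the fold criterion of 0.4. The adjusted p was 0.109 by edgeR and 0.0379 by DESeq2. The other EphB receptors were lower in level. Ephb3 was at 1.28 ± 0.123 FPKM over WT ovaries (SD, n = 5) beside 1.13 ± 0.0872 FPKM over ERβKO ovaries (SD, n = 4), and Ephb1 at 0.770 ± 0.0829 and 0.698 ± 0.163 FPKM, both with overlapping ranges.

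Of the EphA receptors, 2 had an unadjusted p under 0.05, and both were lower in ERβKO ovaries. Epha7 (ENSMUSG00000028289, chr4:28813131-28967499, plus strand) was at 0.989, 0.962, 1.18, 1.26 and 1.12 FPKM across WT replicates 1 to 5, against 0.949, 0.691, 0.804 and 0.666 FPKM across ERβKO replicates 1 to 4. The groups did not overlap, although WT replicate 2 and ERβKO replicate 1 were close to each other. The estimated log2 change was -0.55 (SE 0.15), and the adjusted p was 0.0883 by edgeR, 0.0152 by DESeq2 and 0.028 by edgeR without WT replicate 2.

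Epha3 (ENSMUSG00000052504, chr16:63543538-63864158, minus strand), a receptor with high affinity for ephrin-A5, was at 1.42, 0.763, 0.903, 1.12 and 1.34 FPKM across WT replicates 1 to 5, against 0.605, 0.775, 0.705 and 0.856 FPKM across ERβKO replicates 1 to 4. WT replicates 1, 4 and 5 were again the highest, and WT replicate 2 lay within the ERβKO range. EdgeR gave a log2 fold change of -0.61 (SE 0.20), and the adjusted p was 0.133 by edgeR, 0.0473 by DESeq2 and 0.0495 by edgeR without WT replicate 2. Both receptors were near the FPKM criterion of 1, with 76 to 142 fragments per library for Epha3 and 80 to 166 for Epha7. Epha4 was the EphA receptor with the highest level, at 2.62 ± 0.585 FPKM over WT ovaries (SD, n = 5) beside 2.87 ± 0.432 FPKM over ERβKO ovaries (SD, n = 4), which overlapped. Epha1, a receptor of epithelia, was at 1.97 ± 0.430 and 2.36 ± 0.397 FPKM, and Epha2, another epithelial receptor, at 1.33 ± 0.278 and 1.13 ± 0.284 FPKM, each with overlapping ranges. Of the exon length of Epha1, 6.01% is shared with Zyx on the opposite strand, and whether the counting used the strand was not stated. Epha5 was below 1 FPKM in every ovary (0.103 to 0.581 FPKM).

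**Figure D4:**
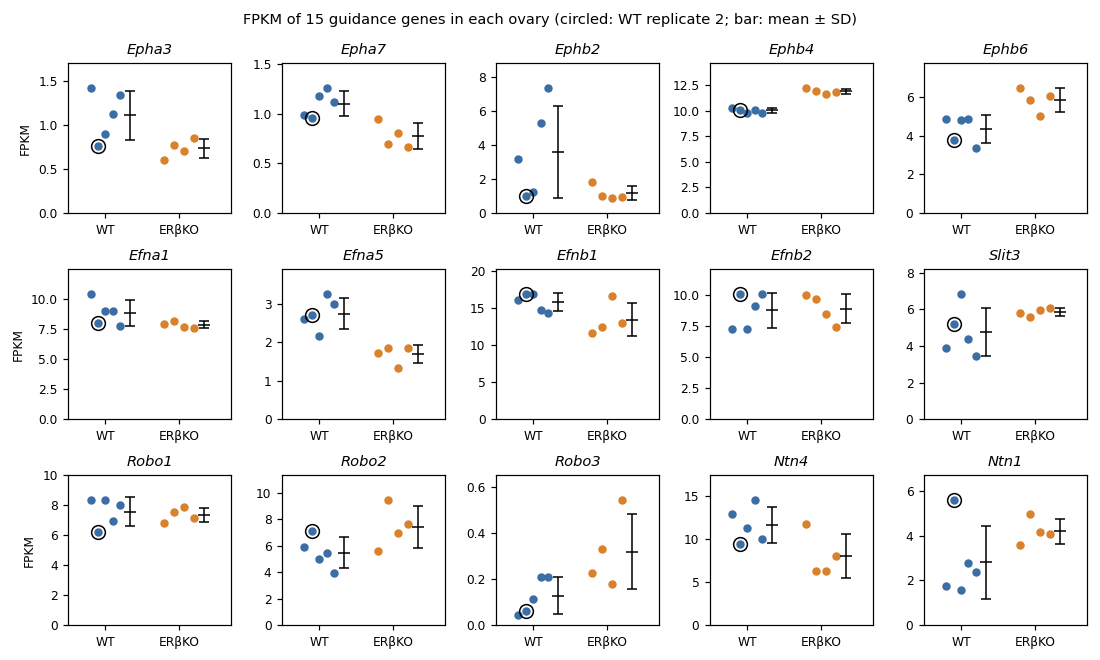
FPKM of 15 members in each ovary, 1 panel per gene with an axis from 0; blue points are WT and orange points ERβKO ovaries, black bars the mean ± SD, and a circle marks WT replicate 2. Epha7, Ephb4, Ephb6 and Efna5 have no overlap between the genotypes, and in Epha3, Ephb2 and Ntn1 the circled ovary lies with or beyond the ERβKO ovaries.

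The ephrin-A ligands were lower as a sum: the 5 genes together held 14.7 to 16.6 FPKM in WT and 13.5 to 14.0 FPKM in ERβKO ovaries, with no overlap, while the sums of the other 7 groups of members overlapped. This is a description of sums picked out after their values were seen. Efna5 (ENSMUSG00000048915, chr17:62604184-62881317, minus strand), which encodes ephrin-A5, stood at 2.59, 2.70, 2.17, 3.25 and 3.00 FPKM across WT replicates 1 to 5, against 1.72, 1.84, 1.34 and 1.84 FPKM across ERβKO replicates 1 to 4. All WT ovaries were above all ERβKO ovaries, WT replicate 2 included. Its log2 fold change was -0.69 (SE 0.17), a ratio of ERβKO to WT of 0.622, and the adjusted p was 0.0606 by edgeR and 0.00328 by DESeq2. Efna5 met the DEG criteria in 3 of 18 alternative fits: DESeq2, and edgeR without WT replicate 2 (adjusted p = 0.0387) and without WT replicate 3 (adjusted p = 0.0264).

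The promoter of Efna5 at chr17:62881268-62881567, minus strand is shown as that of the ligand whose groups did not overlap, from the same RefSeq table.
Efna5: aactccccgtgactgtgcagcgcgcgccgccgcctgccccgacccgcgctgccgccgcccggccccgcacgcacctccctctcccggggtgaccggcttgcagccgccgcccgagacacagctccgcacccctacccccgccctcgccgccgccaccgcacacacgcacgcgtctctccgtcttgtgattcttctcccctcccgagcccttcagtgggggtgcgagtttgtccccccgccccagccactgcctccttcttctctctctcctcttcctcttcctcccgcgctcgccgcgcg
It held 38 CG dinucleotides and none of the 4 elements searched, though the shorter GGTCA occurs on the opposite strand (as TGACC).

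Efna1, the most abundant ephrin-A gene with 56.2% of the group's summed FPKM, was at 10.4, 8.02, 8.99, 9.00 and 7.71 FPKM across WT replicates 1 to 5, against 7.95, 8.19, 7.68 and 7.61 FPKM across ERβKO replicates 1 to 4. WT replicates 2 and 5 lay within the ERβKO range and the other 3 above it. Its log2 fold change of -0.17 (SE 0.097) went with an edgeR adjusted p of 0.356. Efna2 was at 1.60 ± 0.383 FPKM over WT ovaries (SD, n = 5) beside 1.86 ± 0.467 FPKM over ERβKO ovaries (SD, n = 4), and Efna4 at 2.48 ± 0.205 and 2.22 ± 0.272 FPKM, with overlapping ranges. Efna3 was low, with 6 to 27 fragments per library. The exons of Efna3 and Efna4 overlap genes on the opposite strand, over 14.1% and 10.5% of their length, so their counts are uncertain if strand was not used. Efna1, Efna3 and Efna4 lie next to each other on chromosome 3, with 10.4 kb between Efna3 and Efna4 and 32.8 kb between Efna1 and Efna3.

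Efnb1 (ENSMUSG00000031217, chrX:99136130-99148991, plus strand) is the ephrin-B ligand on the X chromosome. It was at 16.1, 16.9, 16.9, 14.7 and 14.3 FPKM across WT replicates 1 to 5, against 11.7, 12.4, 16.7 and 13.0 FPKM across ERβKO replicates 1 to 4. ERβKO replicate 3 lay among the WT ovaries and the other 3 below all of them. ERβKO over WT, the log2 fold change was -0.29 (SE 0.12), and the adjusted p was 0.222 by edgeR. Without ERβKO replicate 3 it was -0.43, and the adjusted p was 0.0498 by edgeR.

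Efnb2, which encodes the arterial ligand of Ephb4, had no difference that could be told from the spread. It was at 7.24, 10.1, 7.32, 9.17 and 10.1 FPKM across WT replicates 1 to 5, against 10.0, 9.69, 8.48 and 7.48 FPKM across ERβKO replicates 1 to 4. The ranges were nearly the same. Its log2 fold change was -0.024 with an interval (± 1.96 SE) of -0.29 to 0.24, and the adjusted p was 0.942 by edgeR; the sign turned in some alternative fits. Efnb3 was at 2.02 ± 0.298 FPKM over WT ovaries (SD, n = 5) beside 2.01 ± 0.285 FPKM over ERβKO ovaries (SD, n = 4). Of the 8 ephrin genes, 2 had a log2 fold change above 0 and 6 below, and 2 of them (Efna5 and Efnb1) had an unadjusted p under 0.05.

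Slit3 was the Slit gene with the highest level, at 3.90, 5.22, 6.84, 4.37 and 3.47 FPKM across WT replicates 1 to 5, against 5.83, 5.57, 5.95 and 6.09 FPKM across ERβKO replicates 1 to 4. The ERβKO ovaries were close to each other and the WT ovaries lay on both sides of them, with coefficients of variation of 3.76% and 28.0%. The estimated log2 change was 0.27 (SE 0.17), and the adjusted p was 0.402 by edgeR. Slit2 was at 2.44 ± 0.245 FPKM over WT ovaries (SD, n = 5) beside 2.14 ± 0.439 FPKM over ERβKO ovaries (SD, n = 4), with overlapping ranges. Slit1, with 14 to 44 fragments per library, was below 1 FPKM in all ovaries.

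Robo1, the Robo receptor with the highest mean level in WT ovaries, was at 8.33, 6.19, 8.35, 6.93 and 8.04 FPKM across WT replicates 1 to 5, against 6.85, 7.57, 7.87 and 7.13 FPKM across ERβKO replicates 1 to 4. The ERβKO ovaries lay inside the WT range. Its log2 fold change was -0.062, with an interval (± 1.96 SE) of -0.27 to 0.15. Robo2 (ENSMUSG00000052516, chr16:73892306-74411825, minus strand), which lies 846 kb from Robo1, was at 5.89, 7.14, 4.98, 5.48 and 3.98 FPKM across WT replicates 1 to 5, against 5.63, 9.46, 6.95 and 7.67 FPKM across ERβKO replicates 1 to 4. WT replicate 2 was the only WT ovary above more than 1 of the ERβKO ovaries. The log2 fold change of Robo2 was 0.38 (SE 0.17), and the adjusted p was 0.234 by edgeR and 0.0686 without WT replicate 2.

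Robo3 (ENSMUSG00000032128, chr9:37415669-37433163, minus strand), a Robo receptor that does not bind Slit in mammals, was scarce. It was counted 5, 10, 13, 12 and 9 times in WT replicates 1 to 5 and 20, 31, 19 and 25 times in ERβKO replicates 1 to 4. All ERβKO counts were above all WT counts, and in FPKM, where the highest WT ovary was at 0.211 and the lowest ERβKO ovary at 0.180, the groups overlapped. EdgeR gave a log2 fold change of 1.15 (SE 0.26). The adjusted p was 0.0522 by edgeR, 0.0238 by DESeq2 and 0.0499 by edgeR without WT replicate 2. The mean FPKM was below 1 in both genotypes, so Robo3 failed that criterion in each fit. Robo4, the endothelial Robo receptor, lies 1.65 kb from Robo3 on the other strand and was at 3.01 ± 0.453 FPKM over WT ovaries (SD, n = 5) beside 3.45 ± 0.543 FPKM over ERβKO ovaries (SD, n = 4), with overlapping ranges.

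Ntn4 (ENSMUSG00000020019, chr10:93640681-93747207, plus strand) encodes netrin-4, a netrin of basement membranes that binds laminin. It was at 12.9, 9.45, 11.3, 14.5 and 10.0 FPKM across WT replicates 1 to 5, against 11.7, 6.23, 6.26 and 7.97 FPKM across ERβKO replicates 1 to 4. ERβKO replicate 1 lay among the WT ovaries, and the other 3 were below all of them. Its log2 fold change was -0.58 (SE 0.19), and the adjusted p was 0.135 by edgeR and 0.0462 by DESeq2. Without ERβKO replicate 1 it was -0.80, and the adjusted p was 0.0357 by edgeR. That ovary was also the highest of the 9 in adipocyte markers, whose mean was 7.42 on the log2 CPM scale there, between 4.18 and 5.17 in WT ovaries and between 4.55 and 6.16 in the other ERβKO ovaries. All 5 of these markers had a log2 fold change above 0 and none was at 0 in any library, with sums of 82.0 to 175 FPKM in WT and 95.9 to 734 FPKM in ERβKO ovaries. The adipocyte list was 1 of 14 marker lists. The same ovary was also the highest of the 9 in the 8 oocyte markers, at a mean log2 CPM of 5.03, of which 7 lay above 0. WT replicates 4 and 1, the highest of the 9 in Ntn4, were at 5.17 and 4.60 in adipocyte markers. The part of either list in the level of Ntn4 was not tested.

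Ntn1, which encodes netrin-1, the classical ligand of DCC, was at 1.74, 5.58, 1.56, 2.79 and 2.38 FPKM across WT replicates 1 to 5, against 3.58, 4.96, 4.15 and 4.05 FPKM across ERβKO replicates 1 to 4. WT replicate 2 was the highest of all 9 ovaries, while the other 4 WT ovaries were below every ERβKO ovary. With all libraries the log2 fold change was 0.54 (SE 0.32), and the adjusted p was 0.377 by edgeR. Without WT replicate 2 it was 0.94 (SE 0.19), and the adjusted p was 0.0217 by edgeR. The summed level of Schwann cell markers was 39.2 FPKM in WT replicate 2 and 16.4 to 19.8 FPKM in the other 4 WT ovaries, against 39.1, 43.2, 82.9 and 63.7 FPKM across ERβKO replicates 1 to 4. In these sums WT replicate 2 was the only WT ovary within the ERβKO range, just above its lower end. On the mean log2 CPM of the same markers it lay at 2.91, just below the ERβKO range of 2.96 to 3.61. The other WT ovaries were at 2.20 to 2.59 on that scale. Of the 4 Schwann markers tested, of 5 in the list, 3 lay above 0, 1 below and 2 were called by edgeR, and Sox10 was at 0 in at least 1 library. The Schwann cell list was 1 of 14 marker lists. In mean log2 CPM, WT replicate 2 was also the highest of the 9 ovaries in smooth muscle and pericyte markers (7.74) and in oviduct epithelium markers (7.45). The ERβKO ovary with the most Ntn1, replicate 2, was not the one with the most Schwann cell markers, replicate 3. The part of any of these lists in the level of Ntn1 was not tested. Ntn1 is called or not by WT replicate 2, and it was chosen for description after this was seen. The 2 netrins differed in sign in both fits, Ntn4 at -0.58 with all libraries and -0.66 without WT replicate 2.

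Of the netrin receptors, Unc5b was at 1.60 ± 0.165 FPKM over WT ovaries (SD, n = 5) beside 1.41 ± 0.187 FPKM over ERβKO ovaries (SD, n = 4). Unc5a and Unc5c had means below 1 FPKM in both genotypes, with 43 to 109 and 18 to 91 fragments per library. None of the 3 tested had an unadjusted p under 0.05.

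Promoter sequences were matched by symbol for 31 of the 36 members (all but Dcc, Efnb3, Ntn1, Slit1 and Unc5d), which have 36 promoters in the RefSeq table (GRCm38.p6). The estrogen response element GGTCANNNTGACC was in none of them and in 0.07% of all 32851 promoters. The half-site AGGTCA was in the promoters of 3 members, Epha2, Ntn4 and Robo4, and in 16.3% of all promoters. CAAGGTCA, to which Nr5a1 and Nr5a2 bind and which contains this half-site, was in none, against 1.56% of all, and TGANTCA in none, against 7.81%. The median GC content was 64.8% in the members' promoters and 52.7% in all. The promoter of Ntn4 at chr10:93640799-93641098, plus strand is shown with its half-site in capitals, which begins 222 bases before the start site. These are letters in a window of 300 bases, and no binding data were used here. The study did map ERβ binding in WT ovaries, by sequencing of immunoprecipitated chromatin. It placed only a minority of the sites in promoters and most of them in introns or between genes.
Ntn4: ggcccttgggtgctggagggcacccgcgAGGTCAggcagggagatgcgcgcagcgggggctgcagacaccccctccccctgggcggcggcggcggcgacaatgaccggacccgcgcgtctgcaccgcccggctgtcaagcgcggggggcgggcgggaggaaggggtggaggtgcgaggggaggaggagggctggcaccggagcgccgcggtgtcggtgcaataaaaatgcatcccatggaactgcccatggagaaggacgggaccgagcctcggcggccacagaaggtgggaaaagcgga

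The proteins that work beside these receptors were read from a list of 56 genes, 16 co-receptors and related ligands and 40 intracellular effectors, of which 54 were tested. By edgeR 0 of them were DEGs, 8 were higher and 8 lower at an unadjusted p under 0.05 (9.81% and 10.0% of all genes), and their median log2 fold change was -0.0074. DESeq2 called 2 (3.7% of 54, below the 4.66% of all genes), both of them Slit-Robo GTPase-activating proteins, which act downstream of Robo receptors. Srgap1 was at 1.85 ± 0.257 FPKM over WT ovaries (SD, n = 5) beside 1.19 ± 0.207 FPKM over ERβKO ovaries (SD, n = 4), and Srgap3 at 6.20 ± 0.774 and 9.45 ± 1.22 FPKM. The genotypes did not overlap in either gene, as in 8 of the 54 partners (14.8%, beside 7.61% of all genes), and the directions were opposite. Srgap2, of the same family, was at 11.3 ± 1.22 FPKM over WT ovaries (SD, n = 5) beside 10.7 ± 0.605 FPKM over ERβKO ovaries (SD, n = 4), with a log2 fold change of -0.053 (SE 0.068), and was named after its values were seen. Srgap1 had a log2 fold change of -0.65 (SE 0.15), and the adjusted p was 0.0506 by edgeR and 0.00105 by DESeq2. Srgap3 had a log2 fold change of 0.54 (SE 0.12), and the adjusted p was 0.0508 by edgeR and 0.00441 by DESeq2. Without WT replicate 2, edgeR called 4 partners, where it called 5.51% of all genes. These were Srgap1 (adjusted p = 0.0383), Srgap3 (0.0229), Flrt1 (0.0415) and Ngef (0.0178).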

How the data were processed

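RNA-seq of whole ovaries from 5 WT and 4 ERβKO mice was used. Per the labels and the study's methods, the authors trimmed reads with Trim Galore, mapped them to mm10 (GRCm38) with STAR and counted them per gene with featureCounts. The deposited counts are raw and not normalized. The authors calculated the deposited FPKM with StringTie. Whether the counting used the strand was not stated, and tool versions were not given in the sources used here.

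Counts of 46078 genes were filtered with filterByExpr, which left 16722, normalized by TMM and compared with edgeR 4.0.16 (quasi-likelihood test, Benjamini-Hochberg adjustment over all 16722) in R 4.3.3. DESeq2 1.42.0, the study's tool, and limma 3.58.1 on log2(FPKM + 1) or log2(FPKM + 0.1) were alternatives, beside other size factors and filters, a replicate block and each library left out. DEGs, by the study's thresholds, needed a log2 fold change beyond 0.4 in either direction, an adjusted p below 0.05 and a mean above 1 FPKM in WT or ERβKO ovaries. The common biological coefficient of variation was 0.179. With 126 splits of the 9 ovaries, an exact permutation test (two-sided) cannot go below p = 0.0159, and after adjustment over all genes the smallest p was 0.209, so they are not given per gene. Adjustment over the members alone, though planned, is not given.

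Members with an unadjusted p under 0.05, or a mean of at least 5 FPKM in a genotype, are given with every library, and partners where edgeR or DESeq2 called them. These gene families, the lists and the rules were chosen with earlier results of these data known. The fits were run on counts simulated from the spread that edgeR estimated, with known changes and no outlying library. That run therefore cannot speak to how the calls depend on single libraries such as WT replicate 2. P-values set the difference between genotypes against the spread between single mice. The counts of 2 libraries of 1 genotype differed by more than sampling noise in every pair.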

Additional observations from a re-analysis of the deposited data

Results flagged for a closer look

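Within genotypes, the highest and the lowest ovary of each of the 31 tested members was set against the others by Dixon's ratio of gap to range, in 62 groups. Only 1 group had a library beyond the limit: Ephb2 was at 1.81 FPKM in ERβKO replicate 1 and between 0.908 and 0.994 FPKM in the other 3 ERβKO ovaries, a ratio of 0.906, above Dixon's critical value for 4 samples. In CPM the same ovary was at 14.7, beside 13.0 to 14.3 in the others, so it stood apart in the deposited FPKM and less so in the counts. Chance flags about 1 in 20 groups.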

How the results depend on the processing

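Calls depended on the test and on single libraries. DEGs over all genes numbered 287 in the fit reported, 805 with DESeq2, 51 with the libraries numbered below 200 (without WT replicates 4 and 5), and 60 to 912 with 1 library left out, the highest without WT replicate 2 and the lowest without ERβKO replicate 2; any library but WT replicate 3 or ERβKO replicate 1 moved the count by over 1.5 times. Members called numbered 0 in the fit reported, 5 with DESeq2 and 0 to 5 with 1 library left out: 5 without WT replicate 2, and 1 each without WT replicate 3 (Efna5), ERβKO replicate 1 (Ntn4) and ERβKO replicate 3 (Efnb1), where 5.51%, 2.14%, 1.5% and 0.897% of all genes were called. All other alternatives called 0 members. Partner genes called numbered 0 in the fit reported, 2 with DESeq2 or with no filter on low counts, 1 with DESeq2 size factors, upper-quartile factors or limma with either pseudocount (1 in each), and 0 to 4 with 1 library left out. The cause was not tested.

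The replicate numbers share no stated animal or batch, and deviations of same-numbered ovaries had correlations of -0.0427 to 0.130, so they were not taken as pairs. With the replicate block, 155 genes, 0 members and 1 partner gene were called.

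Of 267 values of 15 named members under alternatives, 240 kept their direction and side of the threshold, 20 passed it and 7 reversed. All 7 were Efnb2, at 0.056 with the replicate block, 0.096 with libraries numbered below 200, 0.023 and 0.026 with limma, and 0.027, 0.050 and 0.057 with WT replicate 2, WT replicate 5 or ERβKO replicate 4 left out (-0.090 to 0.057 over all 9 such fits). Low counts limit Epha8 and Robo3.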
